A study of Mus musculus with 6 samples.

Results

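The genes described here encode the subunits, activators, inhibitor and assembly factors of the proteasome, the protease complex that degrades ubiquitin-tagged proteins. They were taken as the protein-coding genes whose symbol begins with Psma, Psmb, Psmc, Psmd, Psme, Psmf or Psmg, by the GENCODE M21 annotation of mouse build mm10. The rule found 50 genes among the 55401 rows of the count table, of which 21897 were protein-coding. Gene expression had been measured in 6 bulk RNA libraries of 2000 sorted cells each. The 3 ESC-derived libraries held Lin-Sca-1+c-Kit- cells sorted from the marrow of primary recipient mice that had been given CD144+ cells differentiated from embryonic stem cells (ESCs). The 3 LSK libraries held Lin-Sca-1+c-Kit+ cells, the marrow fraction that contains blood stem and multipotent progenitor cells, from untreated C57BL/6 mice of 6 to 8 weeks. Both groups are labelled wild type, and the sources used here name neither the recipients' strain, age and conditioning nor the number of mice behind a library. The groups differ in origin, in host and in the c-Kit gate at once, and these cannot be told apart. In bulk libraries, fewer cells of a type and less RNA per cell cannot be told apart either.

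The core particle, or 20S proteasome, is a barrel of stacked rings of alpha subunits (Psma genes) and beta subunits (Psmb genes). The catalytic beta subunits, Psmb5, Psmb6 and Psmb7, can be replaced by the immunoproteasome subunits Psmb8, Psmb9 and Psmb10, which blood cells express and interferon gamma induces, and which favour the production of peptides for MHC class I. The 19S regulatory particle recognises ubiquitin, unfolds the substrate with a ring of ATPases (Psmc genes) and removes ubiquitin in its lid (Psmd genes). Activators encoded by Psme genes, PA28 and PA200, cap the core particle without ATP, and Psmg genes and some Psmd genes encode chaperones of assembly.

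The ESC-derived libraries totalled 46299936 to 49269286 counts each, against 41580006 to 44481252 for the LSK libraries. Members held 1.505 to 1.625% of an ESC-derived library's counts, against 1.001 to 1.033% of an LSK library's. CPM are counts scaled to library size by TMM, except in the next comparison, where they were scaled by library totals only. LSK replicate 2 stood apart. Over 3296 genes with a mean CPM of 50 or more, its value lay between those of the other LSK libraries for 69.1% of genes. The share for the other 5 libraries ran from 14.9 to 38.8%. A library that lies between the others lowers the spread of its group, so counts are also given without it. Of the marker lists, the 12 T cell genes summed to 13812 to 14287 CPM in ESC-derived and 148 to 181 CPM in LSK libraries, and all 12 rose. The 10 plasma cell genes summed to 97.9 to 127 CPM in ESC-derived and 7839 to 9354 CPM in LSK libraries. Of these, 8 were lower, including Tnfrsf17 at 0 counts in ESC-derived cells, 1 was higher and Irf4 did not pass. The 8 stem and progenitor genes summed to 0.238 to 4.22 CPM in ESC-derived and 1867 to 1930 CPM in LSK libraries, all lower, with Hoxa9 at 0 counts in ESC-derived cells. The 10 cycling genes summed to 1612 to 1674 CPM in ESC-derived and 1500 to 1599 CPM in LSK libraries, with Rrm2 higher and Mcm2 and Mcm3 lower. The 10 interferon response genes summed to 1002 to 1309 CPM in ESC-derived and 618 to 715 CPM in LSK libraries, with 4 higher. None of these sums overlapped between the groups, and the lists' part in the results on proteasome genes was not tested.

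Proteasome transcripts were higher in ESC-derived cells across most of the complex. Summed over the 50 members, ESC-derived cells had 17146 ± 294 CPM, against 9384 ± 323 CPM for LSK cells, a ratio of 1.83 (errors of levels are SDs with n = 3 per group). Of the 49 members tested, 35 rose, 3 fell and 11 did not pass the threshold of 0.05 on edgeR's adjusted p over all genes tested, which is 71.4% higher and 6.12% lower. Over all 16211 genes tested, 14.8% were higher and 15.2% lower (30.0% in either direction). The tested members' median log2 fold change was 0.61, beside -0.07 over all genes tested. The members are abundant transcripts, and abundant genes passed more often: of 3304 genes with a mean of 50 CPM or more, 36.7% were higher and 15.6% lower, beside 35 higher (79.5%) and 0 lower among the 44 members at that level, all 44 with a positive fold change by edgeR. The groups did not overlap for 39 members that were higher and 3 that were lower in ESC-derived cells, where 22.6% and 27.2% of all genes tested were so placed. Without LSK replicate 2, 22 members rose and 2 fell, with 8.61% of all genes higher and 7.34% lower. With library totals in place of TMM scaling, 20 rose and 3 fell, with 10.8% of all genes higher and 18.9% lower.

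**Figure D1:**
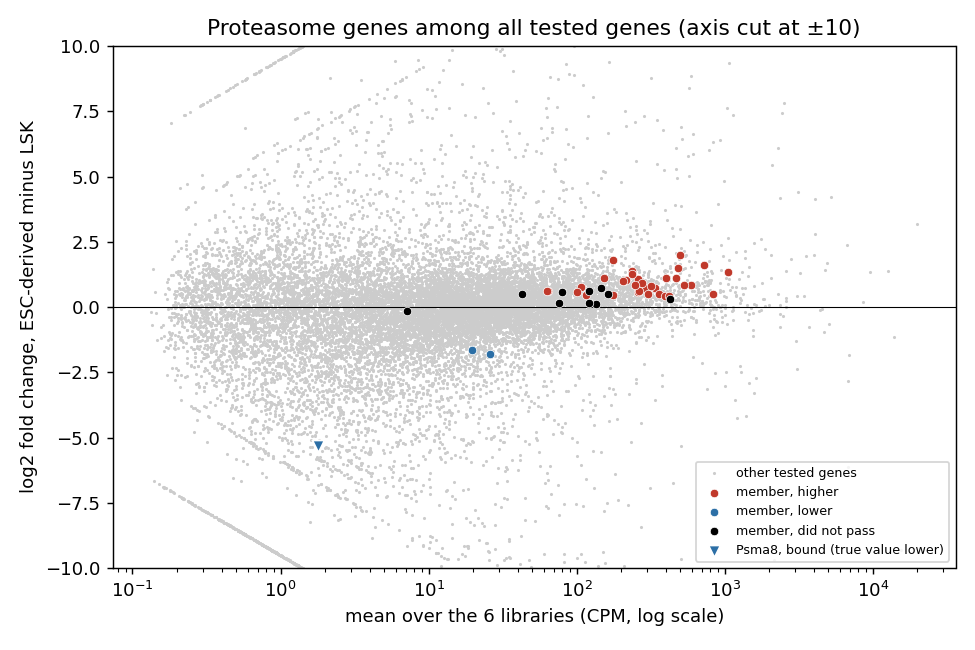
Each point is a gene, with its mean over the 6 libraries in CPM on a log axis and its log2 fold change, ESC-derived minus LSK, on the vertical axis, cut at plus and minus 10. Members that rose (red, 35), fell (blue, 3) or did not pass (black, 11) stand mostly at high levels and above 0, and Psma8 is drawn at its bound.

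All 7 constitutive beta subunits rose, and of 8 alpha subunits 6 rose, 1 fell and 1 did not pass. Psmb3, a structural beta subunit of chromosome 11 (97703399 to 97713500, plus strand), had the largest rise among them. It measured 1065, 1161 and 1082 CPM in ESC-derived libraries, against 296, 345 and 431 CPM in LSK libraries. The lowest ESC-derived library stood far above the highest LSK library, and the log2 fold change was 1.63 ± 0.15 (SE; edgeR adjusted p = 0.0005). Psmb1, another structural beta subunit, measured 486, 600 and 558 CPM in ESC-derived libraries, against 253, 250 and 255 CPM in LSK libraries. Its LSK libraries were nearly level, and it rose by 1.12 ± 0.11 (edgeR adjusted p = 0.000548). Psmb2 (0.83 ± 0.10) and Psmb4 (0.42 ± 0.11), also without catalytic activity, rose as well. The call of Psmb4 was lost with library totals only (log2 fold change 0.16), when any LSK library was left out (0.44, 0.40 and 0.37 without replicates 1, 2 and 3) and when ESC-derived replicate 1 or 2 was (0.43 and 0.34). It was also lost with the block on replicate number (0.41), and held in 9 of 16 alternatives.

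Among the catalytic constitutive subunits, Psmb5, which cleaves after hydrophobic residues, measured 345, 335 and 276 CPM in ESC-derived libraries, against 187, 174 and 164 CPM in LSK libraries. The groups were well apart, with a log2 fold change of 0.86 ± 0.12 (edgeR adjusted p = 0.00285). Psmb6, which cleaves after acidic residues, measured 919, 1056 and 954 CPM in ESC-derived libraries, against 571, 692 and 822 CPM in LSK libraries. LSK replicate 3 came within reach of the ESC-derived libraries, and the log2 fold change was 0.49 ± 0.15 (edgeR adjusted p = 0.0461). Psmb7, which cleaves after basic residues, measured 125, 145 and 131 CPM in ESC-derived libraries, against 88, 95.1 and 108 CPM in LSK libraries, a log2 fold change of 0.47 ± 0.13 (edgeR adjusted p = 0.0332). The Psmb6 call held in 6 and the Psmb7 call in 8 of 16 alternatives. Both were lost without LSK replicate 1 (Psmb6 0.36, Psmb7 0.40) or 2 (0.47 and 0.43) and without ESC-derived replicate 2 (0.43 and 0.41) or 3 (0.51 and 0.48), and Psmb6 also without ESC-derived replicate 1 (0.53). Psmb7 shares 405 exonic bases, 11.8% of its exons, with Nek6 on the opposite strand, and the kit does not mark strand.

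Of the alpha ring, Psma2 had the lowest adjusted p. It measured 694, 675 and 543 CPM in ESC-derived libraries, against 324, 293 and 277 CPM in LSK libraries, a log2 fold change of 1.10 ± 0.13 (edgeR adjusted p = 0.00134). Psma7, the alpha subunit with the highest mean CPM, measured 696, 813 and 755 CPM in ESC-derived libraries, against 388, 419 and 465 CPM in LSK libraries, a log2 fold change of 0.83 ± 0.11 (edgeR adjusted p = 0.00221). In both genes every ESC-derived library exceeded every LSK library. Psma3 (0.91 ± 0.12) and Psma4 (0.82 ± 0.12) rose in every alternative, whereas the calls of Psma1 (0.44 ± 0.11) and Psma5 (0.45 ± 0.12) held in 12 and 9 of 16. Psma1 lost its call without LSK replicate 2 (0.43) or 3 (0.38) and ESC-derived replicate 1 (0.37), and Psma5 without LSK replicate 1 (0.36) or 2 (0.45) and any one of ESC-derived replicates 1, 2 and 3 (0.47, 0.46 and 0.41). Psma6 did not pass: it measured 597, 418 and 397 CPM in ESC-derived libraries, against 331, 390 and 416 CPM in LSK libraries, and the groups overlapped. Psma8, an alpha subunit of germ cells that takes the place of Psma7, had 0 counts in each ESC-derived library, against 172, 181 and 151 counts in LSK libraries. Against a floor of 12 counts over the 3 libraries of a group (3 fragments of about 4 counts each, counting error only), the ESC-derived level of Psma8 was at least 39.5-fold lower (edgeR adjusted p = 0.00413), at an LSK level of 3.60 CPM.

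**Figure D2:**
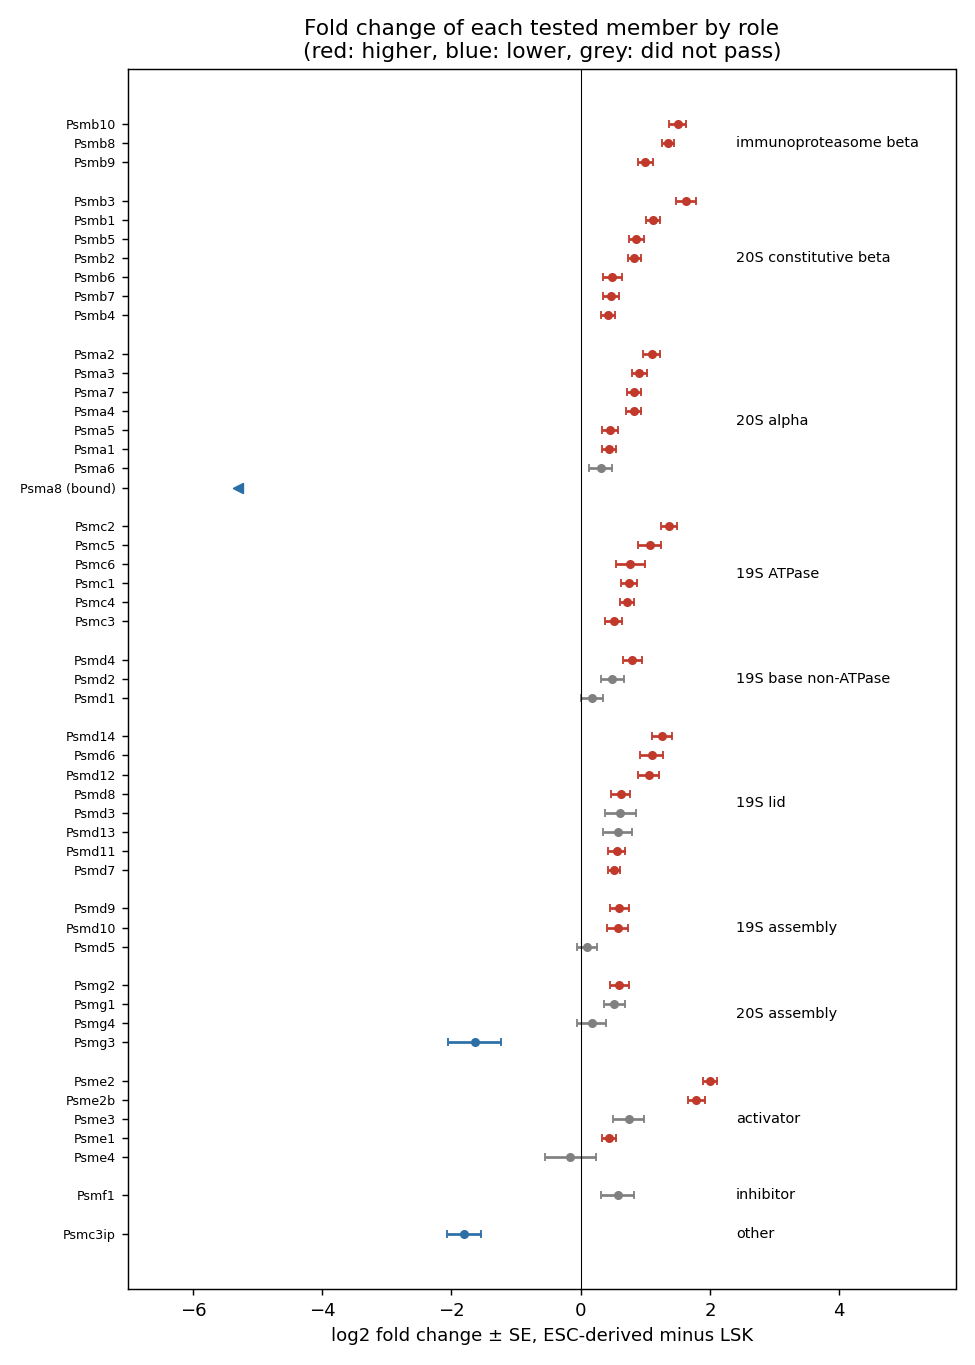
The log2 fold change, ESC-derived minus LSK, of each tested member is shown with its SE, grouped by role. Red points rose, blue points fell and grey points did not pass, and Psma8 is drawn at its bound of -5.30, with its true value lower. All 3 immunoproteasome subunits, all 7 constitutive beta subunits and all 6 ATPases lie right of 0.

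All 3 immunoproteasome subunits rose, in the full data and in each of the 16 alternatives. Summed, they reached 2502 ± 62.6 CPM in ESC-derived cells, against 981 ± 71.2 CPM in LSK cells, a ratio of 2.55, beside 1.83 for the constitutive beta and 1.63 for the alpha subunits. Psmb8, which replaces Psmb5 (chromosome 17, 34197721 to 34201454, plus strand), was the member with the highest mean CPM in ESC-derived cells. It measured 1556, 1459 and 1522 CPM in ESC-derived libraries, against 550, 591 and 635 CPM in LSK libraries. The libraries of each group lay close together, and the log2 fold change was 1.35 ± 0.09 (edgeR adjusted p = 0.000138). Psmb10, which replaces Psmb7 (chromosome 8, 105935735 to 105938444, minus strand), measured 685, 795 and 675 CPM in ESC-derived libraries, against 230, 242 and 287 CPM in LSK libraries. No ESC-derived library came near the LSK range, and the log2 fold change was 1.5 ± 0.13 (edgeR adjusted p = 0.00034). Psmb9, which replaces Psmb6 (chromosome 17, 34181987 to 34187764, minus strand), measured 286, 295 and 235 CPM in ESC-derived libraries, against 139, 132 and 137 CPM in LSK libraries. Its log2 fold change was 1.0 ± 0.12 (edgeR adjusted p = 0.00143). By GENCODE, Psmb9 and Tap1, a peptide transporter of the MHC class I pathway, lie on opposite strands with start sites 211 bases apart, and the genes share 212 exonic bases, so some reads can be assigned to either. Psmb11, the thymus form of the catalytic subunit, had 0 counts in all 6 libraries, which allows up to 0.0911 CPM in ESC-derived and 0.0856 CPM in LSK cells, and it was not tested.

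**Figure D3:**
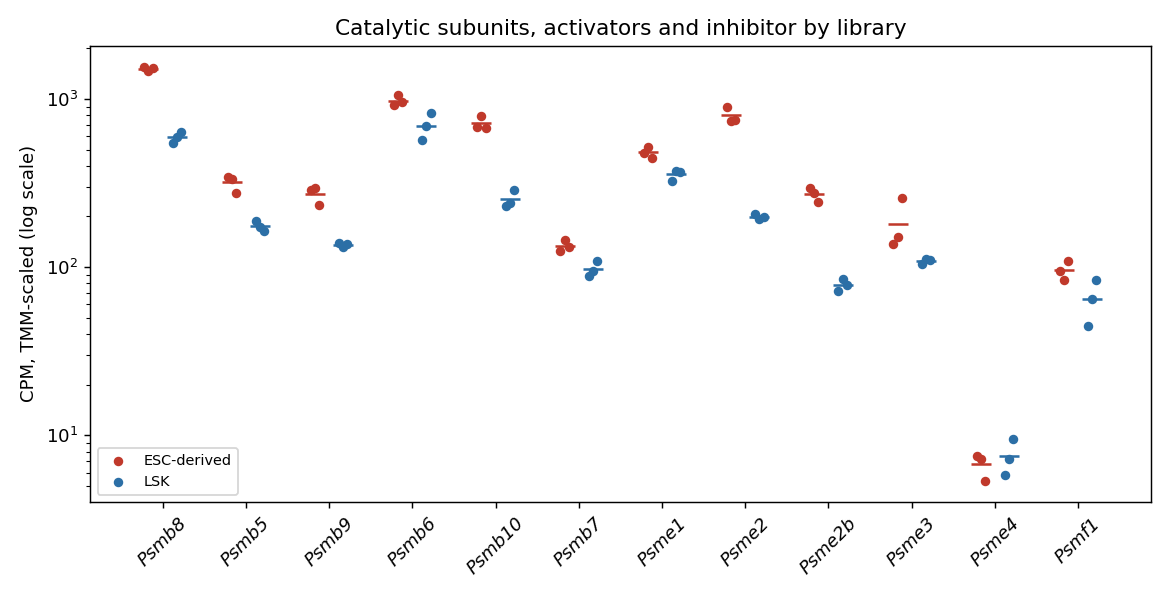
Points are the CPM of single libraries on a log axis, with a bar at the group mean, for each catalytic subunit beside the subunit it can replace, then the activators and the inhibitor. Psmb8 stands at 1459 to 1556 CPM in the ESC-derived libraries and 550 to 635 CPM in the LSK libraries, while Psme4 overlaps between groups.

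Ratios between partner subunits within a library do not depend on how libraries are scaled, and here levels are per kilobase of annotated exon. The log2 ratio of Psmb10 to Psmb7 was 3.46, 3.46 and 3.36 in ESC-derived libraries, against 2.39, 2.35 and 2.42 in LSK libraries, a difference of 1.04. The ratio was thus 2.05-fold higher in ESC-derived cells, with no overlap and very little spread. The log2 ratio of Psmb8 to Psmb5 was 0.26, 0.21 and 0.55 in ESC-derived libraries, against -0.35, -0.15 and 0.04 in LSK libraries, a difference of 0.50. The log2 ratio of Psmb9 to Psmb6 was -2.65, -2.80 and -2.99 in ESC-derived libraries, against -3.01, -3.36 and -3.55 in LSK libraries, a difference of 0.49. In these 2 ratios the groups did not overlap either, but in the Psmb9 ratio ESC-derived replicate 3 and LSK replicate 1 nearly met. Each of the 3 differences gave p = 0.1 in an exact two-sided permutation test over 20 assignments, the smallest p that 3 libraries against 3 allow, and 0.13 adjusted over the 4 ratios compared. The immunoproteasome share of each pair was 55.9 ± 3.12% in ESC-derived and 47.4 ± 3.43% in LSK cells for Psmb8, 12.5 ± 1.28% in ESC-derived and 9.27 ± 1.63% in LSK cells for Psmb9, and 91.5 ± 0.296% in ESC-derived and 84.0 ± 0.323% in LSK cells for Psmb10. The shares depend on the gene lengths taken: with the longest protein-coding transcript the Psmb8 share was 70.7 to 75.3% in ESC-derived and 61.9 to 68.1% in LSK libraries. The Psmb10 share was then 81.9 to 82.9% in ESC-derived and 69.2 to 70.3% in LSK libraries. The Psmb9 share was 12.7 to 15.5% in ESC-derived and 8.95 to 12.5% in LSK libraries. The differences in log2 ratio between groups do not depend on the lengths.

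**Figure D4:**
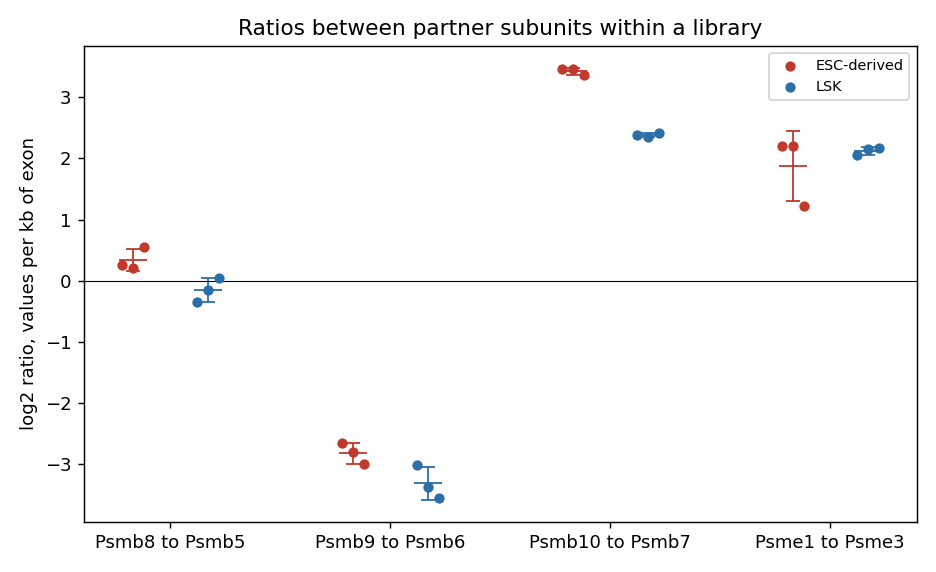
Points are the log2 ratios of partner subunits within each library, in values per kilobase of exon, with the group mean and SD. The ratio of Psmb10 to Psmb7 separates the groups most clearly, at 3.36 to 3.46 in ESC-derived and 2.35 to 2.42 in LSK libraries, and the ratio of Psme1 to Psme3 overlaps.

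Among the PA28 activators, Psme2 showed the largest rise of any member. It encodes the beta chain of the PA28 ring that interferon gamma induces (chromosome 14, 55587441 to 55591113, minus strand). Psme2 measured 901, 744 and 750 CPM in ESC-derived libraries, against 206, 193 and 199 CPM in LSK libraries. The LSK libraries were nearly level, and the log2 fold change was 2.0 ± 0.11 (edgeR adjusted p = 5.86e-05). Psme2b, an intronless copy of Psme2, measured 294, 277 and 244 CPM in ESC-derived libraries, against 72, 85 and 78.4 CPM in LSK libraries, a log2 fold change of 1.79 ± 0.13 (edgeR adjusted p = 0.000142). Of the 50-base words in its transcript, 68.7% also occur in Psme2 transcripts, so the split of reads between these genes is uncertain. Psme1, the alpha chain of the same ring, measured 475, 521 and 447 CPM in ESC-derived libraries, against 324, 372 and 370 CPM in LSK libraries, a log2 fold change of 0.44 ± 0.11 (edgeR adjusted p = 0.0223). Its call held in 10 of 16 alternatives and was lost without LSK replicate 1 (0.37) or 2 (0.45) and without ESC-derived replicate 1 (0.45) or 2 (0.38).

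Psme3, the nuclear PA28 gamma chain, did not pass. It measured 137, 150 and 257 CPM in ESC-derived libraries, against 104, 111 and 110 CPM in LSK libraries. All 3 ESC-derived libraries lay above the LSK libraries, replicate 3 by the widest margin, with a log2 fold change of 0.74 ± 0.24 (edgeR adjusted p = 0.0608). Without that library the log2 fold change was 0.41 and passed, and without ESC-derived replicate 1 it was 0.91 and passed. Psme3 also passed with DESeq2 (0.72) and with values divided by 4 (0.74). The log2 ratio of Psme1 to Psme3 was 2.21, 2.21 and 1.22 in ESC-derived libraries, against 2.05, 2.16 and 2.17 in LSK libraries (exact permutation p = 1, n = 3 per group). Psme4, which encodes the activator PA200, was low, at 7.52, 7.23 and 5.34 CPM in ESC-derived libraries, against 5.77, 7.22 and 9.49 CPM in LSK libraries, and the groups overlapped. Psmf1, an inhibitor of the core particle also known as PI31, measured 94.5, 83.8 and 108 CPM in ESC-derived libraries, against 44.4, 64.5 and 83.8 CPM in LSK libraries. ESC-derived replicate 2 and LSK replicate 3 nearly coincided, and Psmf1 did not pass (0.57 ± 0.25 on the log2 scale, adjusted p = 0.131 by edgeR).

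Promoter letters were read beside the values. RefSeq windows of 250 bases before to 50 after the start site (build GRCm38.p6, the assembly of mm10) were found for 42 of the 50 members. They were searched on both strands for 5 short motifs, which can overlap one another. A member counted as matched if any of its windows held the motif, while the shares over all windows count each window singly. Some members have several windows, so the shares set side by side are of unlike units. The interferon-type pair GAAANNGAAA occurred in 5 of 42 members (11.9%) and in 3.44% of the 32851 windows of the table. The palindrome TTCNNNGAA of gamma-activated sites (GAS) occurred in 3 members (7.14%) and in 8.3% of windows. The antioxidant response element TGACNNNGC, which Nfe2l1 and Nfe2l2 are known to bind, occurred in 6 members (14.3%) and in 12.4% of windows. CCAAT occurred in 15 members (35.7%) and in 37.4% of windows. The ETS-type core CCGGAAG occurred in 15 members (35.7%) and in 8.86% of windows, and 9 of those 15 encode 19S subunits, among 14 with a window.

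The windows below, printed from 250 bases before to 20 after the start site, are those of all 3 immunoproteasome genes, of the PA28 genes Psme1, Psme2 and Psme2b, of the constitutive subunit Psmb5, and of the ATPase gene with the lowest adjusted p. Capitals mark each match to the 5 motifs. They are Psmb8 (chr17:34197945-34198214, plus strand), Psmb9 (chr17:34187311-34187580, minus strand), Psmb10 (chr8:105938373-105938642, minus strand), Psme1 (chr14:55578244-55578513, plus strand), Psme2 (chr14:55591082-55591351, minus strand), Psme2b (chr11:48946391-48946660, minus strand), Psmb5 (chr14:54617976-54618245, minus strand) and Psmc2 (chr5:21785025-21785294, plus strand).
Psmb8: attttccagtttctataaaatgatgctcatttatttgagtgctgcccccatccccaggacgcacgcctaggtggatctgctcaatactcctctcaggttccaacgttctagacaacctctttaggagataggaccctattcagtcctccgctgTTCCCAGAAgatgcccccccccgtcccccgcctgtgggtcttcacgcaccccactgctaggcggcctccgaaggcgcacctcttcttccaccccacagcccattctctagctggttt
Psmb9: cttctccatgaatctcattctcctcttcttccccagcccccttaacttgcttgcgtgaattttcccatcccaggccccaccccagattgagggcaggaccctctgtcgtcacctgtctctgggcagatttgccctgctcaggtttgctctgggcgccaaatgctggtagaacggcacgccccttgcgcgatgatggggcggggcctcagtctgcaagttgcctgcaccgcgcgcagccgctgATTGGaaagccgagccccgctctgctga
Psmb10: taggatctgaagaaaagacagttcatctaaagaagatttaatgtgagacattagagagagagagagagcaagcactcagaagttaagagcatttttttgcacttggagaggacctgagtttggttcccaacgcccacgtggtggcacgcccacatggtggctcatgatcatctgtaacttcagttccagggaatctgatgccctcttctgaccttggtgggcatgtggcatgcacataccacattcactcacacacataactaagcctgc
Psme1: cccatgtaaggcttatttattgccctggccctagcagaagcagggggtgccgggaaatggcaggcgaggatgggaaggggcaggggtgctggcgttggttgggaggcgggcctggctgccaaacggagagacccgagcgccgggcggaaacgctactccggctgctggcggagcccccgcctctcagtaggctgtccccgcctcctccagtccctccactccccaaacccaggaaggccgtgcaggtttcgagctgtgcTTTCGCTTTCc
Psme2: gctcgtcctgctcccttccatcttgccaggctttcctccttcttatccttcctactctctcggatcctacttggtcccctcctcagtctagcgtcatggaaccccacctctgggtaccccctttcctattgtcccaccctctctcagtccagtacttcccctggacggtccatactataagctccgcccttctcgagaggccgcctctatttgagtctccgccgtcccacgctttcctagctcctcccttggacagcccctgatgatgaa
Psme2b: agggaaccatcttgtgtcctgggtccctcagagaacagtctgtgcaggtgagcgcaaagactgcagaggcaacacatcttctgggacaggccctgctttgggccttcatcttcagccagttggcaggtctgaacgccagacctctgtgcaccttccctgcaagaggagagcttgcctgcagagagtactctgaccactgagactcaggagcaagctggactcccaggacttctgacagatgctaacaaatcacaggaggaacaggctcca
Psmb5: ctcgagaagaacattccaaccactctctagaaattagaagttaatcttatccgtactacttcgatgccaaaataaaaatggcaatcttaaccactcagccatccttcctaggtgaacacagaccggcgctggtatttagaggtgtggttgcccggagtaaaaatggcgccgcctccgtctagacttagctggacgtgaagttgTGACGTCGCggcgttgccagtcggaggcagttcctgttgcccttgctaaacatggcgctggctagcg
Psmc2: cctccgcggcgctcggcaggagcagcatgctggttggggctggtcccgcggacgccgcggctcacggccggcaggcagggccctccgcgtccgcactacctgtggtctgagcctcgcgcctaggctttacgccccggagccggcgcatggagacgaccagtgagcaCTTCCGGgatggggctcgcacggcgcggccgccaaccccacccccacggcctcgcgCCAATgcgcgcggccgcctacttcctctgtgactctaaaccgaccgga
RefSeq and GENCODE place the start sites differently, by 474 bases for Psmb8, 434 for Psmb9, 371 for Psme1, 220 for Psme2b and 52 for Psmb10, and positions here count from the RefSeq site. The printed windows of Psmb8, Psmb9 and Psme1 lie wholly downstream of the GENCODE start. Matches or their absence there say nothing of the sequence upstream of that start. The Psmb8 window holds TTCCCAGAA, a GAS-type match whose first base is 97 bases before the start site. The Psmb9 window holds an inverted CCAAT box 8 bases before the start site, and the Psme1 window an interferon-type match, TTTCGCTTTC, 10 bases after it. The printed windows of Psmb10, Psme2 and Psme2b, which also rose, held none of the 5 motifs, and the interferon-type pair occurred in 0 of the 3 immunoproteasome windows. Psmb5 carries TGACGTCGC, an antioxidant-type match, and Psmc2 an ETS-type match and a CCAAT box. A match is a run of letters in the window and no evidence of binding.

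Of the 17 members that encode subunits of the 19S regulatory particle, 13 rose and 4 did not pass, and all 17 had a positive fold change by edgeR. Sem1 and Adrm1, also 19S subunits, do not meet the naming rule and are given below with the pathway genes. All 6 ATPases of the base rose. Psmc2 measured 331, 310 and 384 CPM in ESC-derived libraries, against 123, 135 and 138 CPM in LSK libraries, a log2 fold change of 1.37 ± 0.12 (edgeR adjusted p = 0.000372). Psmc4 measured 381, 341 and 365 CPM in ESC-derived libraries, against 235, 225 and 199 CPM in LSK libraries, a log2 fold change of 0.72 ± 0.11 (edgeR adjusted p = 0.00322). In both ATPases the groups stood well apart. Psmc3, the ATPase with the highest mean CPM over all 6 libraries (not corrected for length), measured 487, 365 and 410 CPM in ESC-derived libraries, against 274, 295 and 316 CPM in LSK libraries, a log2 fold change of 0.51 ± 0.13 (edgeR adjusted p = 0.0274). The calls of Psmc3 and Psmc6 (0.77 ± 0.23) held in 9 and 6 of 16 alternatives. Both were lost on leaving out LSK replicate 1, 2 or 3 (Psmc3 0.46, 0.49 and 0.55, Psmc6 0.66, 0.79 and 0.84) and without ESC-derived replicate 1 (0.39 and 0.52) or 3 (0.53 and 0.83). Psmc1 (0.75 ± 0.12) and Psmc5 (1.07 ± 0.18) also rose, Psmc1 in 15 of 16 alternatives, the exception being library totals only (0.50).

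Of the 3 members that encode base subunits without ATPase activity, 1 rose. Psmd4, a ubiquitin receptor, measured 272, 318 and 394 CPM in ESC-derived libraries, against 181, 186 and 197 CPM in LSK libraries, a log2 fold change of 0.80 ± 0.15 (edgeR adjusted p = 0.00798). Psmd1 (0.17 ± 0.17) and Psmd2 (0.49 ± 0.18), the large scaffold subunits, did not pass, and their groups overlapped. Psmd2 measured 147, 189 and 233 CPM in ESC-derived libraries, against 126, 130 and 151 CPM in LSK libraries, and passed without ESC-derived replicate 1 (0.64).

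Of the 8 members that encode lid subunits, 6 rose and 2 did not pass. Psmd14, the enzyme that removes ubiquitin chains from substrates, measured 289, 314 and 391 CPM in ESC-derived libraries, against 150, 146 and 119 CPM in LSK libraries, a log2 fold change of 1.26 ± 0.16 (edgeR adjusted p = 0.00168). Psmd12, a structural subunit, measured 298, 233 and 345 CPM in ESC-derived libraries, against 144, 145 and 135 CPM in LSK libraries, a log2 fold change of 1.05 ± 0.16 (edgeR adjusted p = 0.00349). Psmd7, the partner of Psmd14 in the lid and the lid gene with the highest mean CPM, had the smallest spread, at 358, 356 and 357 CPM in ESC-derived libraries, against 242, 255 and 253 CPM in LSK libraries. Its log2 fold change was 0.52 ± 0.09 (edgeR adjusted p = 0.00535), and its call was lost with library totals only (0.27). Psmd6 (1.10 ± 0.18), Psmd8 (0.62 ± 0.15) and Psmd11 (0.56 ± 0.13) rose too. The calls of Psmd8 and Psmd11 held in 11 of 16 alternatives each. Psmd8 was lost without LSK replicate 2 (0.58) or 3 (0.54) and ESC-derived replicate 1 (0.61) or 2 (0.50), and Psmd11 on leaving out LSK replicate 1, 2 or 3 (0.57, 0.59 and 0.48). Psmd3 (0.61 ± 0.24) and Psmd13 (0.57 ± 0.22) did not pass. Psmd13 shares 342 exonic bases with Sirt3 on the opposite strand, which had 2251 counts over the ESC-derived and 28833 over the LSK libraries, beside 12410 and 8996 for Psmd13.

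**Figure D5:**
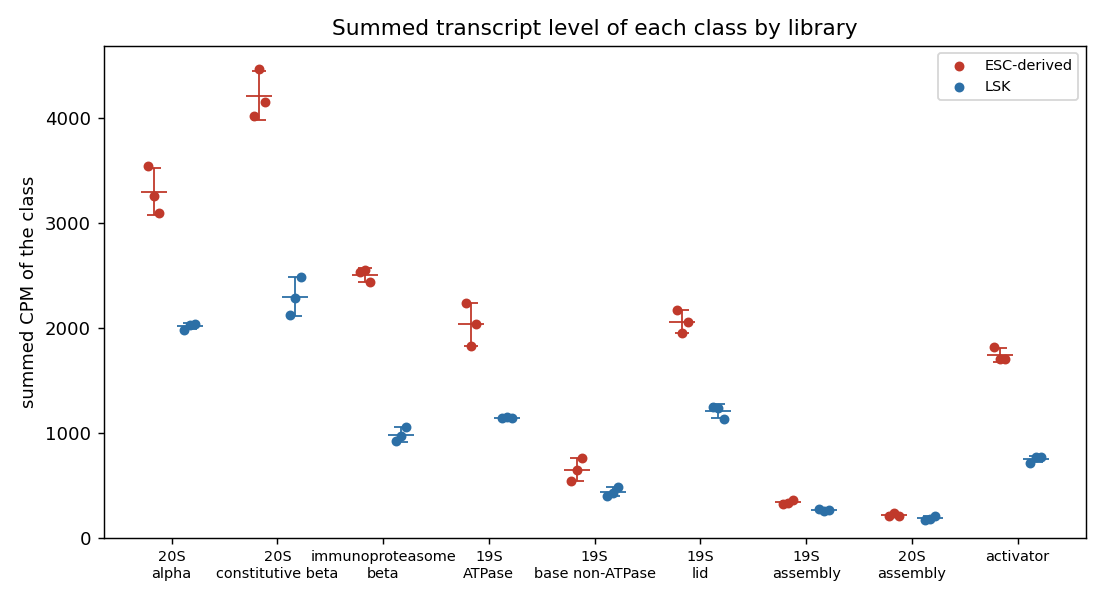
Points are the summed CPM of each class in single libraries, with the group mean and SD, on a linear axis from 0. The immunoproteasome sum stands at 2502 ± 62.6 CPM in ESC-derived and 981 ± 71.2 CPM in LSK cells, and the assembly chaperones among the members have the lowest sums.

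Among the members, the assembly chaperones had the smallest ratios of any class with more than 1 member. Pomp, also a chaperone of core assembly, does not meet the naming rule and is not in these sums. Its mean was 807 CPM in ESC-derived and 506 CPM in LSK cells, a fold change of 1.6. The 3 chaperones of the 19S base summed to 337 ± 17.9 CPM in ESC-derived cells, against 262 ± 9.94 CPM in LSK cells, a ratio of 1.28. The 4 Psmg chaperones of the core summed to 216 ± 16.5 CPM in ESC-derived cells, against 186 ± 21.2 CPM in LSK cells, a ratio of 1.16. The difference between these ratios and those of the subunits was not tested. Psmd9 measured 83.8, 65.1 and 83.1 CPM in ESC-derived libraries, against 49, 51.1 and 53.5 CPM in LSK libraries, a log2 fold change of 0.60 ± 0.15 (edgeR adjusted p = 0.0267). Psmd10, also known as gankyrin, measured 118, 136 and 106 CPM in ESC-derived libraries, against 92.6, 78.6 and 71.9 CPM in LSK libraries, a log2 fold change of 0.57 ± 0.16 (edgeR adjusted p = 0.0332). The call of Psmd9 held in 9 and that of Psmd10 in 10 of 16 alternatives. Psmd9 was lost on leaving out LSK replicate 1, 2 or 3 (0.56, 0.57 and 0.62) and ESC-derived replicates 1 and 3 (0.53 and 0.54), and Psmd10 without LSK replicate 2 (0.52) or 3 (0.48) and ESC-derived replicate 1 (0.58) or 2 (0.47). Psmd5, the chaperone with the highest mean CPM among the members, measured 123, 126 and 168 CPM in ESC-derived libraries, against 130, 122 and 138 CPM in LSK libraries, and did not pass.

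The core chaperones went in different directions. Psmg3 fell, at 5.14, 12 and 11.4 CPM in ESC-derived libraries, against 21.3, 28.7 and 39 CPM in LSK libraries, a log2 fold change of -1.64 ± 0.41 (edgeR adjusted p = 0.0234). Its call was lost without LSK replicate 2 (-1.68) or 3 (-1.40). Psmg2, on chromosome 18, measured 85.2, 70.1 and 73.9 CPM in ESC-derived libraries, against 48.1, 53.6 and 50.1 CPM in LSK libraries, a log2 fold change of 0.60 ± 0.14 (edgeR adjusted p = 0.0203). The Psmg2 call held in 11 of 16 alternatives. It was lost on leaving out LSK replicate 1, 2 or 3 (0.56, 0.62 and 0.58), with library totals only (0.35) and with the block on replicate number (0.59). Psmg1 (0.52 ± 0.16, edgeR adjusted p = 0.0528) and Psmg4 (0.17 ± 0.22) did not pass. Psmg1 passed with DESeq2 (0.49), with limma-voom (0.52) and with the stricter filter (0.52). Psmc3ip met the naming rule but is no proteasome subunit: it was named as a partner of Psmc3 and acts in meiotic recombination. It fell, at 11.3, 13.2 and 9.93 CPM in ESC-derived libraries, against 49.7, 40.9 and 30.2 CPM in LSK libraries, a log2 fold change of -1.81 ± 0.26 (edgeR adjusted p = 0.00299). Psmc3ip shares 385 exonic bases with Mlx on the opposite strand, which had 7733 counts over the ESC-derived and 2722 over the LSK libraries, beside 1505 and 5666 for Psmc3ip.

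Transcript levels of the subunits were unequal, although the subunits of a ring enter it in equal number. Per kilobase of exon, and leaving out Psma8, the 14 constitutive core subunits ran from 39.1 (Psmb7) to 566 (Psmb2) CPM per kilobase in ESC-derived cells, with a median of 202, and from 28.3 (Psmb7) to 371 (Psmb6) in LSK cells, with a median of 127. The 17 member subunits of the 19S particle ran from 17.7 (Psmd1) to 252 (Psmc5) CPM per kilobase in ESC-derived cells, with a median of 104. In LSK cells they ran from 15.7 (Psmd1) to 130 (Psmc1), with a median of 49.1. Taking the longest protein-coding transcript as the length, the core median was 367 CPM per kilobase in ESC-derived and 241 in LSK cells, and the 19S median 161 in ESC-derived and 74.2 in LSK cells. Some of the lowest and highest genes changed with that length. The highest core gene in ESC-derived cells became Psmb3 (1439), and the lowest in LSK cells Psma3 (67.4). In LSK cells the 19S genes then ran from Psmd13 (32.2) to Psmc3 (162). The other extremes kept their genes.

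Other genes of the ubiquitin and proteasome pathway were read from a separate list. Of 32 such genes tested, 9 rose, 1 fell and 22 did not pass, with a median log2 fold change of 0.13. The 31.2% of the list that passed in either direction is close to the 30.0% of all genes tested. By direction, 28.1% of the list were higher and 3.12% lower, where 14.8% and 15.2% of all genes tested were. Pomp, the chaperone of core assembly, measured 780, 846 and 796 CPM in ESC-derived libraries, against 490, 499 and 529 CPM in LSK libraries (log2 fold change 0.67 ± 0.09, edgeR adjusted p = 0.00197). Sem1, the smallest lid subunit, measured 460, 413 and 310 CPM in ESC-derived libraries, against 195, 163 and 148 CPM in LSK libraries (1.23 ± 0.18, edgeR adjusted p = 0.00327). Both genes separated the groups without overlap. Zfand5, a zinc finger protein that stimulates the proteasome, fell, at 39.9, 49.3 and 35.3 CPM in ESC-derived libraries, against 109, 96.5 and 96.1 CPM in LSK libraries (-1.27 ± 0.17, edgeR adjusted p = 0.00212). A few more are named after their values were seen. Adrm1, a ubiquitin receptor of the 19S base, rose by 0.52 ± 0.10, and its call was lost without LSK replicate 2 (0.48) and with library totals only (0.27). Nfe2l1, a transcription factor of proteasome genes, measured 8.32, 13.8 and 4.67 CPM in ESC-derived libraries, against 10.8, 13.4 and 18.1 CPM in LSK libraries, and did not pass. Its relative Nfe2l2 (-0.54 ± 0.19) did not pass either but did so, as lower, with DESeq2 (-0.56), limma-voom (-0.55) and library totals only (-0.78). Ngly1, an enzyme that processes the Nfe2l1 protein, rose by 1.18 ± 0.22.

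Of 9 genes of MHC class I presentation and its regulation, given as side values for the immunoproteasome, 5 rose (55.6%) and 4 did not pass, where 14.8% of all genes tested and 36.7% of those with a mean of 50 CPM or more were higher. Tap1 measured 152, 143 and 203 CPM in ESC-derived libraries, against 53.9, 74.9 and 73.4 CPM in LSK libraries (log2 fold change 1.30 ± 0.20, edgeR adjusted p = 0.00377), and Nlrc5, the transactivator of class I genes, measured 138, 128 and 126 CPM in ESC-derived libraries, against 21.8, 26.2 and 23.4 CPM in LSK libraries (2.45 ± 0.14, edgeR adjusted p = 5.86e-05). B2m (1.34 ± 0.14) and Tapbp (0.99 ± 0.12) rose as well. Tap2 (-0.19 ± 0.19), Erap1, Irf1 and Stat3 did not pass. Irf1, an interferon-induced transcription factor, measured 95.6, 122 and 226 CPM in ESC-derived libraries, against 103, 101 and 103 CPM in LSK libraries, with ESC-derived replicate 3 highest.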

How the data were processed

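Per the labels' protocols, RNA from 2000 sorted cells per library was made into cDNA with the SMART-Seq v4 kit, which is not strand-specific, and sequenced after Nextera XT preparation. HISAT, StringTie and mm10 are named, per the submitters' processing notes, with no version or role, and the sources used here give no annotation, settings or counting program. The authors deposited estimated counts, whole and not normalized, with 1 row per Ensembl gene ID. In each library 40.1 to 47.2% of values between 1 and 20 could be divided by 4, so a fragment was often worth about 4 counts. The 6 column names stand in a single header field and were assigned in their order there. Of 55401 gene IDs, 55141 matched GENCODE M21.

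Genes were filtered with filterByExpr and scaled with TMM, and ESC-derived minus LSK was tested by edgeR's quasi-likelihood method (version 4.0.16 under R 4.3.3, robust, two-sided, Benjamini-Hochberg over all 16211 genes tested, threshold 0.05). The fit was also run on simulated counts, drawn independently for each library. These lacked fragments worth several counts and a library lying between others of its group, so they do not test the calls made here. Each SE is the fold change divided by the square root of F. P-values measure only the spread between these libraries, which may be technical. The members, lists and tests were chosen with earlier results of these data known. Values per library are given for the catalytic subunits, activators and inhibitor, and for up to 3 pathway genes in each direction. In each other class they are given for the most abundant member and for members past the threshold with the lowest adjusted p. Of 35 pathway symbols listed, 32 matched. Some genes of the lists are counted but not reported by name here. The alternatives were DESeq2 (1.42.0), limma-voom (limma 3.58.1), scaling by RLE, by upper quartile or by library totals only, scaling without immunoglobulin and T cell receptor genes, no low-count filter, a filter of 50 counts in 3 libraries, division of values by 4, a block on replicate number, and omission of any one library.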

Additional observations from a re-analysis of the deposited data

How the results depend on the processing

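Across 16 alternatives, 21 of the 38 members called kept their call in each, 20 higher and 1 lower, and 8 of the 11 members that did not pass did so in none. Leaving out 1 library at a time, 22 to 30 members were higher and 2 to 3 lower (main values 35 and 3), 8 to 11 core and 9 to 12 regulatory members were higher (main values 13 and 13), and 1466 to 2163 of all genes were higher and 1250 to 2440 lower. With library totals only, which moved the median log2 fold change of all genes from -0.07 to -0.31, 20 members were higher, 8 of them core and 7 regulatory, and Psmd1 (-0.07), Psmd5 (-0.14) and Psmg4 (-0.08), which had not passed, changed sign. Leaving out 1 library, 4 genes that had not passed also changed sign without passing: Psmd5 ran from -0.06 (without ESC-derived replicate 3) to 0.18, Psmg4 from -0.07 (without ESC-derived replicate 2) to 0.29, Psme4 from -0.33 to 0.04 (without LSK replicate 3) and Erap1 from -0.48 to 0.12 (without ESC-derived replicate 2). The difference in the log2 ratio of Psme1 to Psme3, -0.25 with all libraries, ran from -0.41 to 0.08 and reversed without ESC-derived replicate 3 (0.08). The differences for the catalytic pairs ran from 0.39 to 0.59 for Psmb8, 0.37 to 0.64 for Psmb9 and 1.02 to 1.07 for Psmb10. With the replicate block, 24 members were higher (all among the 35) and 2 lower, 0 core members were lower, and 1732 of all genes were higher and 1488 lower, and Psma8 lost its call. Same-numbered libraries shared only a number: their deviations from the group means correlated at 0.00426, 0.0537 and 0.00625. The pathway list had 2 lower genes with DESeq2, with limma-voom and with library totals only, where the main fit had 1. The cause of these changes was not tested. Counts overstate fragments, which makes low members such as Psma8, Psme4 and Psmg3 less precise than their counts imply.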
